A study of Homo sapiens with 23 samples.

Results

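The genes described here are 10 paralogous subunits of the BAF chromatin remodelling complex, the mammalian SWI/SNF complex, followed through the differentiation of human embryonic stem cells into cardiomyocytes. They are the ATPases SMARCA4 and SMARCA2, the scaffold subunits SMARCC1 and SMARCC2, the trio SMARCD1, SMARCD2 and SMARCD3, and the trio DPF1, DPF2 and DPF3. They were chosen by name as sets of paralogs that can stand in for one another in the complex, and all 10 were found among the 57477 genes of the count table and passed the filter on low counts with 22245 genes in all. Bulk total RNA, depleted of ribosomal RNA, was sequenced from H1-hESC, an established embryonic stem cell line labelled wild type, in 23 libraries. The labels give stem cells at day 0, mesendoderm at day 1, cardiac mesoderm at day 3, cardiac progenitors at days 5 and 7 and cardiomyocytes at days 10, 14 and 28, with 3 libraries a day and 2 at day 10. All libraries came from 1 line, the differentiation agents are not given in the sources used here, and nothing says that replicates were separate cultures, so p-values measure the spread between these libraries, which may be technical.

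BAF complexes use ATP to slide and evict nucleosomes, and so change which enhancers and promoters transcription factors can reach. Each complex takes 1 ATPase and, at several positions, 1 of a small family of paralogs, so that the paralogs a cell makes decide which assemblies it can form. The complex of embryonic stem cells is known for its use of SMARCA4 (BRG1), SMARCC1 and SMARCD1, with little SMARCA2 (BRM) or SMARCC2. SMARCD3 and DPF3 are known as the family members of heart and skeletal muscle: SMARCD3 links the complex to cardiac transcription factors such as GATA4, TBX5 and NKX2-5, and DPF3 reads histone acetylation and methylation through its paired PHD fingers. DPF1 is known from neurons, and DPF2 and SMARCD2 from many tissues.

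SMARCD3 and DPF3 are among the 4 paralogs whose levels rose from day 0 to day 28. Sequences upstream of them are shown beside those of SMARCD1 and DPF1, paralogs of the same trios whose levels fell. Each ends just before the first annotated exon base or at the start site, is written 5′ to 3′ on the gene's strand, and comes from RefSeq (GRCh38.p14). They are SMARCD3 at chr7:151248695-151248944 (minus strand), SMARCD1 at chr12:50085092-50085199 (plus strand), DPF3 at chr14:72894102-72894351 (minus strand) and DPF1 at chr19:38229715-38229945 (minus strand). Capitals mark matches on either strand to 4 motifs. The GC box was searched as GGGCGG and the GATA site was searched as AGATAA. The TATA box was searched as TATAAA, and the remaining motif, named for its own letters, was CCAAT.
SMARCD3: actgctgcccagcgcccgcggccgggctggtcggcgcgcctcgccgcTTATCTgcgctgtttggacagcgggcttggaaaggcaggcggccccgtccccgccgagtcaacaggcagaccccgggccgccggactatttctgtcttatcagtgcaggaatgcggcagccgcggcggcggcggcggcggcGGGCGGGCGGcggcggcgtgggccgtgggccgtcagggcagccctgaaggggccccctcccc
SMARCD1: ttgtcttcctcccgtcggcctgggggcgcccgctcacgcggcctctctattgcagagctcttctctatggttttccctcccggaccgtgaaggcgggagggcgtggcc
DPF3: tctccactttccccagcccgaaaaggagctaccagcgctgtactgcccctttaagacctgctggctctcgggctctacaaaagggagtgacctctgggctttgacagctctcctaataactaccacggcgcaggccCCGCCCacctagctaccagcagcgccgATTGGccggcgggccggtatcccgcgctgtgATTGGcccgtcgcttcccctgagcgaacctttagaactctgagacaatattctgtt
DPF1: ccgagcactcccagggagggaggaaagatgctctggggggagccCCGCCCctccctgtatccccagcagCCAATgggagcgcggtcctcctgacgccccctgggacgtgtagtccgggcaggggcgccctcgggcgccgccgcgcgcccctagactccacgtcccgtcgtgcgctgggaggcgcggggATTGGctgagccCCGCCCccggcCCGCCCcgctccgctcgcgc

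The SMARCD3 stretch held 1 GATA site match, whereas 9.2% of all 35116 windows of the 250 bases before a RefSeq start held 1 or more. The windows of the other SMARCD3 starts held none. GC boxes were in 42.6%, the CCAAT motif in 32.0% and TATA boxes in 10.7% of those windows. All 4 sequences lacked a TATA box match, and the printed SMARCD1 stretch, shorter than the windows behind these percentages, held none of the 4 motifs, while its whole window held 1 GC box. Over its whole 250 bases the GC content was 76.0% for SMARCD3, 70.4% for SMARCD1, 59.2% for DPF3 and 74.8% for DPF1, against a median of 58.0% over all windows. RefSeq lists 3 starts for SMARCD3, 2 for DPF3 and 4 for SMARCA2, whose sequences are not shown. The SMARCA2 starts at chr9:2157662 and chr9:2158464 lie far inside the gene. The counts, which are summed per gene, do not separate the transcripts that begin at each start. A letter match is a description of these windows and does not show binding of a factor.

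Between day 0 and day 28 the balance of paralog transcripts shifted in each of the 4 sets. Levels of SMARCD3, DPF3, SMARCA2 and SMARCC2 rose, those of SMARCD1, SMARCD2, DPF1, SMARCC1 and SMARCA4 fell, and DPF2, with a log2 change of -0.32, did not pass the test. A gene was called at an adjusted p under 0.05 in edgeR's quasi-likelihood test over all 22245 genes, without a minimum fold. Thus 4 of 10 members were called higher and 5 lower, where 32.1% of all genes were called higher and 28.4% lower, so a change of some kind was common in this comparison. The median log2 change of the members was -0.67, and that of all genes was 0.09. The sizes ran from -2.56 for SMARCD2 to 8.93 for DPF3.

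**Figure D1:**
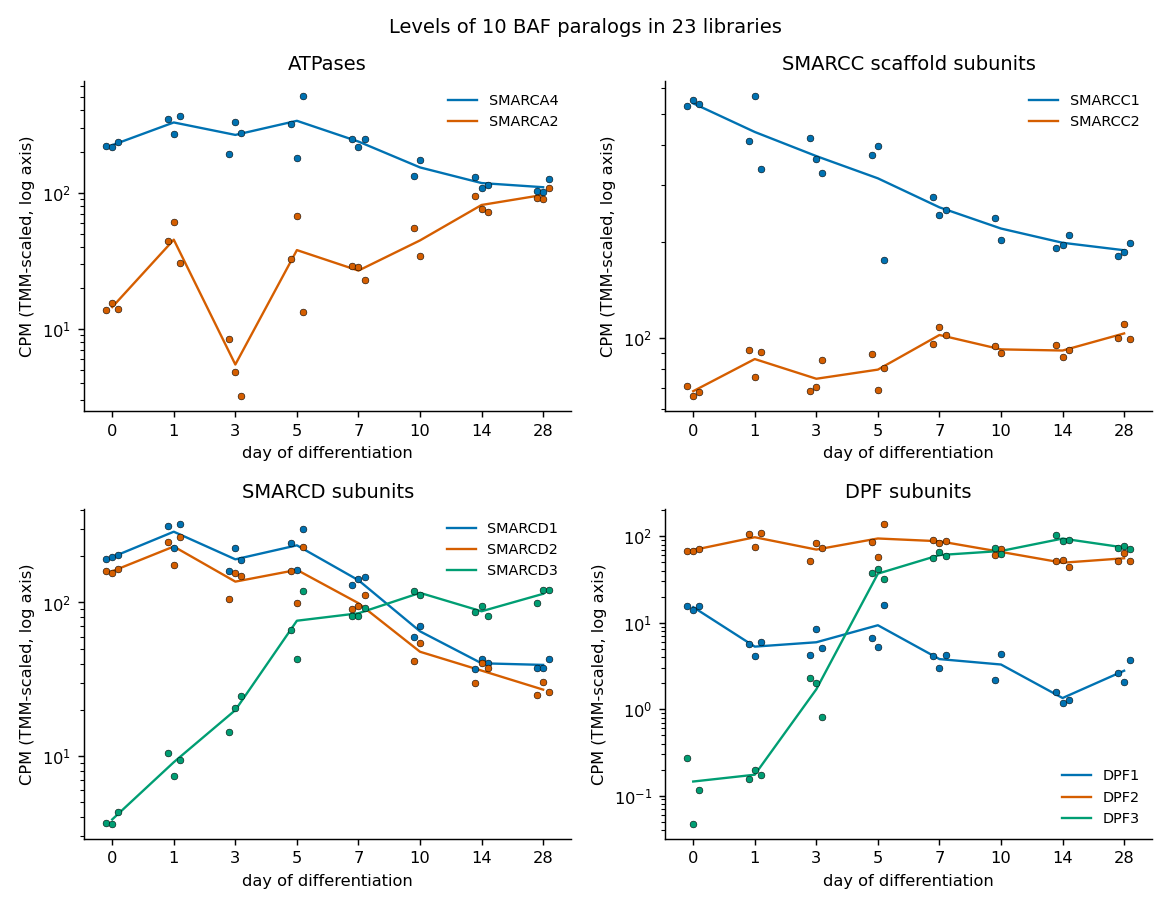
Level of each paralog (y axis, TMM-scaled CPM on a log axis) against the day of differentiation (x axis, days at equal spacing), with 1 point per library and lines through the day means. SMARCD3 and DPF3 climb from 3.87 and 0.145 CPM at day 0 to 114 and 74.2 CPM at day 28, while SMARCD1 and SMARCD2 drop below SMARCD3 from day 10 on.

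Most of the called changes between neighbouring days fell in the early steps, among the members as among all genes. From day 0 to day 1, 2 members were called higher and 1 lower, where 15.3% of all genes were called higher and 16.5% lower. From day 1 to day 3, 2 were called higher and 3 lower, beside 18.2% and 19.0% of all genes. From day 3 to day 5, 3 were called higher and 0 lower, beside 10.3% and 6.33%. In the later steps the fit of all libraries called falls among the members and no rise. From day 5 to day 7, 0 were called higher and 2 lower (all genes 5.32% and 5.02%), and from day 7 to day 10 again 0 and 2 (4.17% and 3.50%). No member was called from day 10 to day 14, where 1.64% of all genes were higher and 2.11% lower, nor from day 14 to day 28, where 7.96% were higher and 7.78% lower. None of the 4 falls after day 5 held under every alternative, and counts with 1 library left out ran from 0 to 5 in the step to day 7 and from 0 to 2 in the step to day 10. With library totals or upper-quartile factors both falls to day 7 were lost and DPF3 was called higher instead. With only the libraries of the days compared in the fit, 2 and 4 members were called in the steps to day 14 and to day 28, and SMARCA2 was called higher and SMARCA4 lower in the step to day 10.

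**Figure D2:**
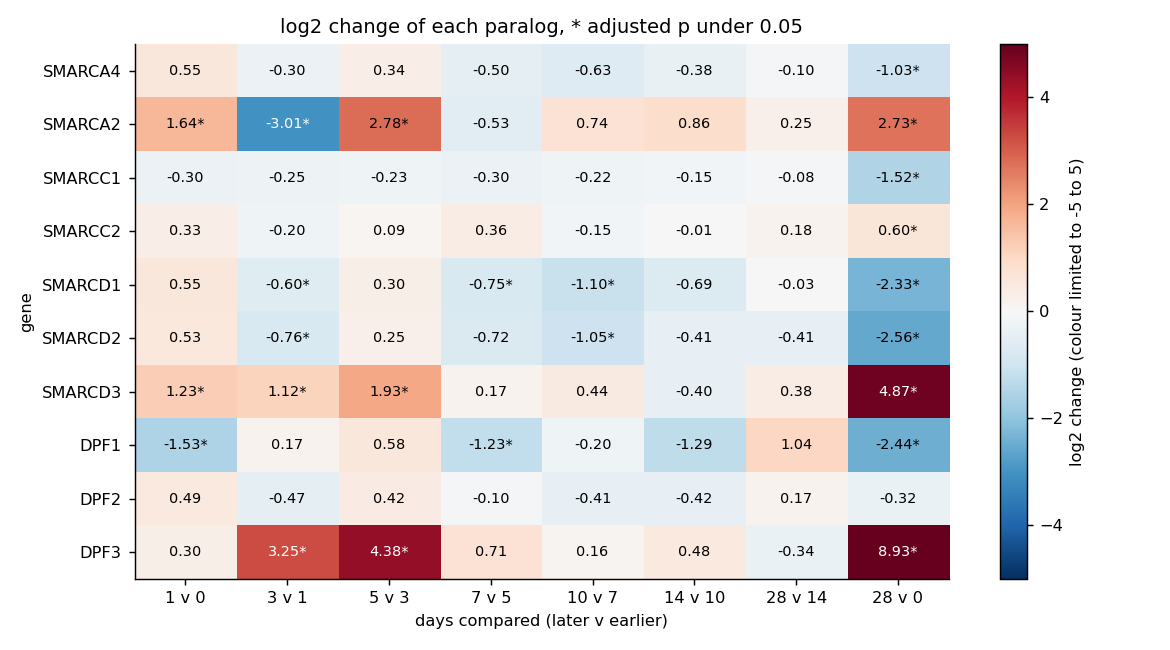
log2 change of each paralog (rows) in each of 8 comparisons of days (columns, the later day first), written in the cell and coloured from blue (lower) to red (higher), with the colour limited to 5. Asterisks mark adjusted p under 0.05 in edgeR's test: SMARCA2 carries 3 of them with alternating sign up to day 5, and the columns from day 10 to day 14 and from day 14 to day 28 carry none.

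SMARCD3 (ENSG00000082014, chr7:151238764-151277896, minus strand) encodes the SMARCD subunit of muscle lineages. Its levels at day 0 were 3.66, 3.63 and 4.33 CPM in the 3 libraries, where CPM is the count scaled to the library's total and its TMM factor. They were 10.5, 7.37 and 9.51 CPM at day 1, then 14.4, 20.6 and 24.7 CPM at day 3, and 66.3, 43.1 and 119 CPM at day 5. Every library of days 1, 3 and 5 lay above every library of the day before it. From then on the gene stayed between 81.2 and 121 CPM in all libraries. Day 7 gave 81.2 to 91.8, day 10 gave 119 and 112, day 14 gave 81.2 to 94.6, and the libraries held 99.9, 121 and 121 CPM on the final day. The 3 early rises passed the test, with log2 changes of 1.23 (SE 0.29, adjusted p = 0.00258), 1.12 (SE 0.28, adjusted p = 0.00275) and 1.93 (SE 0.28, adjusted p = 1.2e-05). No later step did, with log2 changes between -0.40 and 0.44. Over the whole course SMARCD3 rose by 4.87 on the log2 scale (SE 0.32, adjusted p = 1.86e-12).

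SMARCD1 (ENSG00000066117, chr12:50085200-50100707, plus strand), the SMARCD subunit of the stem cell complex, fell late rather than early. It stood at 191, 197 and 203 CPM in the stem cells, 316, 225 and 325 CPM in mesendoderm (day 1), and 244, 162 and 301 CPM in the progenitors of day 5. Day 7 libraries held 130.2 to 147 CPM, those of day 10 held 59.9 and 69.8, those of day 14 held 37.1 to 42.9, and those of day 28 held 37.2 to 43.0, so days 14 and 28 overlapped and lay below every earlier library. The fall from day 7 to day 10 was 1.10 on the log2 scale (SE 0.26, adjusted p = 0.0103), but without day 10 replicate 1 the change of -1.02 had an adjusted p of 0.162. From day 0 to day 28 the log2 change was -2.33 (SE 0.24, adjusted p = 5.58e-09). SMARCD2 (ENSG00000108604, chr17:63832081-63843065, minus strand), the SMARCD paralog known from blood cell maturation, ran close to SMARCD1. Its 3 libraries lay between 155 and 164 CPM at day 0, between 90.4 and 111 at day 7, and between 24.8 and 30.4 at day 28, a log2 change of -2.56 from day 0 (SE 0.27, adjusted p = 1.25e-08). The ratio of SMARCD1 to SMARCD2 counts stayed within a log2 mean of 0.17 to 0.57 on all 8 days. The called falls of both genes from day 1 to day 3 (log2 changes of -0.60 and -0.76, adjusted p = 0.0402 and 0.0232) and of SMARCD1 from day 5 to day 7 (-0.75, adjusted p = 0.0337) were lost under several alternatives, among them scaling by library totals.

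Within the trio SMARCD3 went from the least to the most abundant transcript. Shares were computed per library from counts per kb of exon, as a percentage of the sum over the trio. The share of SMARCD3 was 1.16% ± 0.09 (SD, n = 3) in stem cells, 6.10% ± 1.05 on day 3, 16.4% ± 2.59 on day 5 and 27.7% ± 0.63 on day 7. By day 10 it had reached 52.5% ± 4.43 (n = 2), day 14 gave 55.5% ± 2.63, and the last day 64.7% ± 1.38. SMARCD1 went from 59.1% ± 0.70 to 22.5% ± 1.83, and SMARCD2 went from 39.8% ± 0.68 to 12.9% ± 1.11. The raw counts put the crossing between the same days: the log2 ratio of SMARCD3 to SMARCD1 counts was -0.71 ± 0.06 at day 7 and 0.84 ± 0.21 at day 10. The order of SMARCD1 and SMARCD2 at day 0 depends on the length used, since with the MANE Select transcript the shares were 47.4% and 51.1%.

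**Figure D3:**
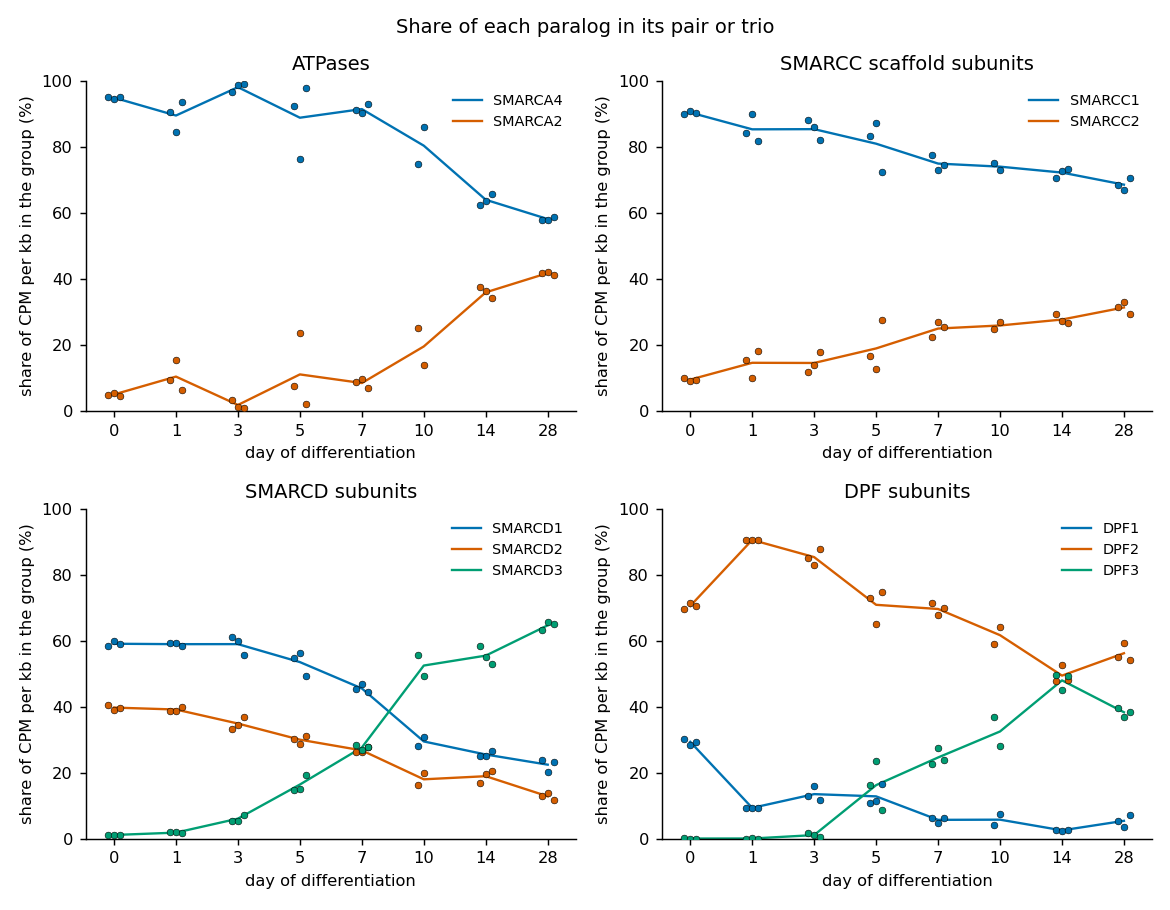
Share of each paralog in its pair or trio (y axis, percent of counts per kb of exon) against the day (x axis, days at equal spacing), with 1 point per library and lines through the day means. SMARCD3 passes 49% in every library from day 10 on, and SMARCA2 moves from 5.04% at day 0 through 1.86% at day 3 to 41.8% at day 28.

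DPF3 (ENSG00000205683, chr14:72609034-72894101, minus strand), the histone-reading subunit of heart and skeletal muscle, was barely detected at the start. Its day 0 libraries held 5, 1 and 2 counts (0.273, 0.0471 and 0.115 CPM), and those of day 1 held 2, 4 and 2. At day 3 it stood at 2.27, 2.02 and 0.804 CPM, and at day 5 at 37.6, 41.3 and 32.0 CPM. Each day 3 library lay above all of days 0 and 1, and each day 5 library lay far above all of day 3. Day 7 libraries then held 56.3 to 66.5 CPM, and the pair of day 10 held 73.6 and 61.7. The highest day was day 14, with 104, 88.5 and 89.6 CPM, before 72.6, 77.7 and 72.2 CPM in the day 28 libraries. DPF3 rose by 3.25 on the log2 scale from day 1 to day 3 (SE 0.43, adjusted p = 1.84e-06) and by 4.38 from day 3 to day 5 (SE 0.30, adjusted p = 4.53e-11). The change of 0.71 from day 5 to day 7 missed the threshold (adjusted p = 0.0688) but was called higher under 7 alternatives, with DESeq2 (0.76, adjusted p = 0.00171), library totals (0.86, adjusted p = 0.0276) and without day 5 replicate 2 (0.90, adjusted p = 0.012) among them. The day 28 libraries, though all below those of day 14, differed from them by -0.34 (SE 0.24, adjusted p = 0.398). The total rise to day 28 was 8.93 (SE 0.39, adjusted p = 1.11e-15), measured from only 8 counts over the day 0 libraries. From day 0 to day 1 the DPF3 log2 change was 0.30 (SE 0.61, adjusted p = 0.748), from 8 counts on each day, too few to set its onset against that of SMARCD3.

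DPF1 (ENSG00000011332, chr19:38211006-38229714, minus strand), the neuronal paralog, was low throughout and fell at the start of differentiation. Its libraries held 15.6, 14.2 and 15.7 CPM at day 0 and 5.72, 4.10 and 6.05 at day 1, without overlap. The log2 change of that step was -1.53 (SE 0.34, adjusted p = 0.00154), and from day 0 to day 28, where the libraries held 2.59, 2.09 and 3.68 CPM, it was -2.44 (SE 0.36, adjusted p = 1.91e-06). A called fall from day 5 to day 7 (-1.23, adjusted p = 0.035) was lost under several alternatives. Day 5 replicate 3 held 16.1 CPM against 6.61 and 5.30 in its replicates, and without it the change was -0.64 (adjusted p = 0.204). The call was also lost without any 1 of the day 7 libraries (adjusted p from 0.0903 to 0.193), with library totals, with upper-quartile factors and with only the libraries of the 2 days. With GC and length trends removed it held (-1.07, adjusted p = 0.00216). DPF2 (ENSG00000133884, chr11:65333843-65354262, plus strand), the widely expressed paralog, was called in none of the 8 comparisons by the fit of all libraries. Its day means ran from 49.5 CPM at day 14 to 97.6 CPM at day 1, and from day 0 (68.2 to 71.6 CPM) to day 28 (51.7 to 63.6 CPM) the libraries did not overlap but the log2 change was -0.32 (SE 0.26, adjusted p = 0.293). When no other day entered the fit, DPF2 was called lower (-0.30, adjusted p = 0.0135).

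The DPF trio therefore passed from a mixture of DPF2 and DPF1 to one of DPF2 and DPF3. Per kb of exon DPF2 held 70.5% ± 1.00 in stem cells, 90.5% ± 0.11 on day 1 and 56.2% ± 2.73 on day 28. DPF1 went from 29.4% ± 0.94 to 9.36% ± 0.09 within the step to day 1, and was at 5.44% ± 1.82 at day 28. DPF3 held 0.08% ± 0.06 in stem cells, 16.3% ± 7.46 on day 5, 48.0% ± 2.43 on day 14 and 38.3% ± 1.28 on day 28. Because the annotated exons of DPF3 cover 17947 bases and those of DPF2 9155, the level at which they meet depends on the length: at day 14 the DPF3 share was 64.9% of CPM without division by length and 37.3% with the MANE Select transcripts. From day 0 to day 28 each of the 3 shares changed in the same direction on all of these scales, but at day 5 the DPF2 share was 70.9% per kb and 76.9% with MANE Select, above day 0, and 65.2% of CPM, below its 81.9% at day 0.

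SMARCA2 (ENSG00000080503, chr9:1980290-2193624, plus strand) and SMARCA4 (ENSG00000127616, chr19:10960932-11079426, plus strand) are the alternative motors of the complex. SMARCA2 did not rise steadily. Its libraries held 13.8, 15.5 and 14.1 CPM in stem cells and 44.1, 60.6 and 30.7 CPM in mesendoderm. In the cardiac mesoderm of day 3 they held 8.40, 4.82 and 3.21 CPM, and in the progenitors of day 5 they held 32.3, 67.8 and 13.4 CPM. All libraries of day 1 were above day 0, all of day 3 were below day 0, and all of day 5 were above day 3. Later libraries held 22.9 to 28.8 CPM (day 7), 54.9 and 34.3 CPM (day 10), 72.3 to 95.1 CPM (day 14) and 90.6, 89.9 and 108 CPM (day 28). The rise to day 1 was 1.64 on the log2 scale (SE 0.38, adjusted p = 0.00228), the change to day 3 was -3.01 (SE 0.41, adjusted p = 2.46e-06), and the rise to day 5 was 2.78 (SE 0.41, adjusted p = 1.25e-05). These 3 calls held under every alternative fit, each library left out in turn included. After day 5 no single step passed, the largest in size being 0.86 from day 10 to day 14 (SE 0.43, adjusted p = 0.262), while the change from day 0 to day 28 was 2.73 (SE 0.39, adjusted p = 1.57e-06).

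SMARCA4 was the higher of the pair in counts in every library but drew close to SMARCA2 by day 28. The stem cell libraries held 220.3, 215 and 234 CPM, and those of day 5 spread from 179.6 to 511 CPM. Values of 217 to 248 CPM (day 7), 133 and 173 CPM (day 10) and 109 to 129.7 CPM (day 14) followed, and the day 28 libraries held 102, 101 and 125 CPM. None of the 7 steps between neighbouring days passed, with log2 changes from -0.63 to 0.55, and the fall from day 0 to day 28 was 1.03 (SE 0.28, adjusted p = 0.00248). Per kb of exon, SMARCA4 went from 14.3 ± 0.62 to 7.02 ± 0.89 CPM and SMARCA2 from 0.758 ± 0.05 to 5.04 ± 0.54 CPM. The share of SMARCA2 in the pair was 5.04% ± 0.47 in stem cells, 10.4% ± 4.61 on day 1, 1.86% ± 1.37 on day 3, 11.1% ± 11.1 on day 5 and 8.50% ± 1.33 on day 7. The cardiomyocyte libraries gave 19.6% ± 8.03 on day 10 (n = 2), 36.0% ± 1.68 on day 14 and 41.8% ± 0.46 on day 28.

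The ATPases ran in fully opposite order between libraries of the same day on days 1 and 5, and on day 10, which has only 2 libraries. On days 0, 3, 7, 14 and 28 they did not. Such opposition was not particular to this pair. Deviations of log2 CPM from the day means, over all 23 libraries, correlated at -0.841 between SMARCA2 and SMARCA4. With the other members SMARCA2 gave 0.873 (SMARCC1), 0.482 (DPF3), and values from -0.554 (SMARCC2) to -0.927 (SMARCD2) for the rest. At day 5 the libraries with 179.6, 318 and 511 CPM of SMARCA4 had 67.8, 32.3 and 13.4 CPM of SMARCA2, so that the SMARCA2 share ran from 2.10% to 23.6% within that day. At day 1 the order was opposite too, with 271, 344 and 365 CPM of SMARCA4 beside 60.6, 44.1 and 30.7 CPM of SMARCA2, and at day 10, 133 and 173 CPM stood beside 54.9 and 34.3. At day 14 the library highest in SMARCA4 (129.7 CPM) was also the highest in SMARCA2 (95.1 CPM), and at day 28 both genes had the same order, up to 125 and 108 CPM. Day 5 replicate 3, with 4330334 counts the shallowest library, stands apart in other members: SMARCC1 was at 176 CPM there against 373 and 396 in its replicates, and DPF2 at 139.8 against 85.4 and 57.9. The longest transcript of SMARCA2 has 42.9% GC and that of SMARCC1 46.5%, while the other 8 members have between 51.4% and 62.6%. A fit with GC and length trends removed from each library was added after the data were seen. In it the SMARCA2 changes were 2.21, -3.44 and 2.80 in the 3 early steps and 2.24 from day 0 to day 28. The trends it removed in day 5 replicates 1, 2 and 3 were 0.349, -0.286 and 1.05 on the log2 scale for SMARCA4. For SMARCA2 they were -0.32, 0.377 and -0.967, and their part in the opposite orders was not tested. Without day 5 replicate 3, the changes from day 3 to day 5 were 3.15 for SMARCA2, 1.46 for SMARCD3 and 4.46 for DPF3, all still called.

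**Figure D4:**
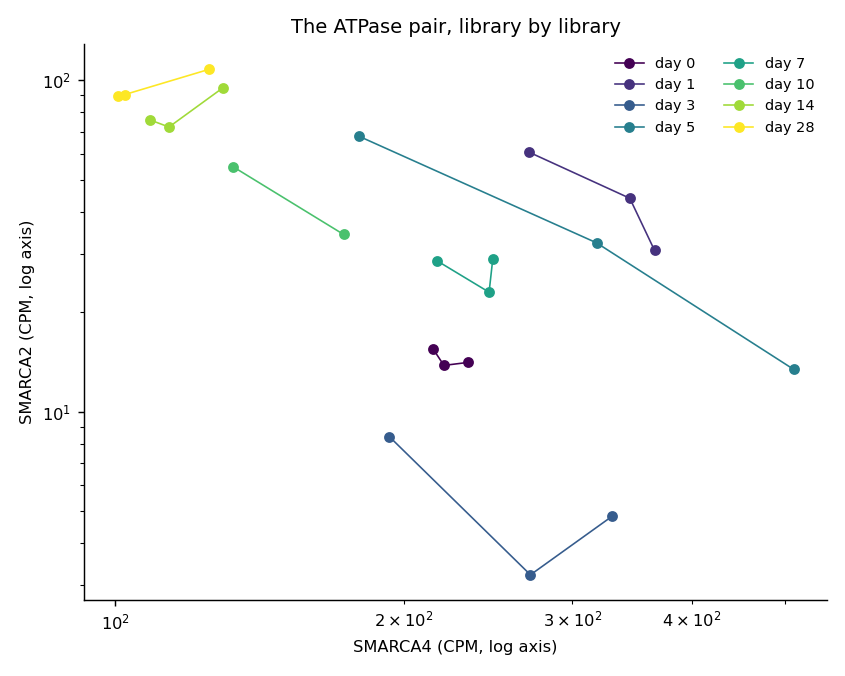
SMARCA2 (y axis) against SMARCA4 (x axis) in TMM-scaled CPM, both axes log, with 1 point per library and lines joining libraries of the same day. The day 3 libraries lie lowest for SMARCA2 (3.21 to 8.40 CPM), days 14 and 28 sit at the upper left, and the lines of days 1, 5 and 10 slope downwards.

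The scaffold subunits changed in small steps, downwards on each day for SMARCC1 and in both directions for SMARCC2. SMARCC1 (ENSG00000173473, chr3:47585269-47782106, minus strand), known for its part in the stem cell complex, stood at 528, 554 and 535 CPM at day 0. Its day means declined at each later time, through 439 CPM on day 1, 315 on day 5, 256 on day 7 and 198 on day 14, and the day 28 libraries held 180.4, 186 and 198 CPM. No step passed, with log2 changes from -0.30 to -0.08, yet the sum of them did: -1.52 from day 0 to day 28 (SE 0.25, adjusted p = 1.23e-05). SMARCC2 (ENSG00000139613, chr12:56162359-56189567, minus strand) went from 71.2, 66.1 and 68.1 CPM to 100.2, 111 and 99.5 CPM, a log2 change of 0.60 (SE 0.19, adjusted p = 0.00853), with steps from -0.20 to 0.36 that were not called. From day 5 to day 7 a call was gained for SMARCC1 without day 5 replicate 3 (-0.59, adjusted p = 0.0421) and for SMARCC2 with GC and length trends removed (0.40, adjusted p = 0.0132). Without a filter on low counts the SMARCC2 rise from day 0 to day 28 was not called (log2 change 0.55, adjusted p = 0.126). Exons of SMARCC2 share 719 bases with those of MYL6, a myosin light chain gene on the opposite strand, whose log2 change from day 0 to day 28 was 1.24 (SE 0.29, adjusted p = 0.000549). The libraries were made with a stranded kit, but whether the counting used strand is not given in the sources used here, so reads from the shared bases cannot be told apart. SMARCD3 shares 1321 exonic bases with CHPF2 on the opposite strand in the same way. CHPF2 changed by 0.94 (SE 0.28, adjusted p = 0.00559) where SMARCD3 changed by 4.87. Opposite-strand long non-coding RNA genes share exonic bases with SMARCA2 (420), DPF2 (1239) and SMARCD3 (574 and 78), and their levels are not given here. The share of SMARCC2 per kb in its pair was 9.54% ± 0.52 in stem cells, 14.6% ± 4.25 on day 1, 19.0% ± 7.77 on day 5, 25.0% ± 2.32 on day 7 and 31.4% ± 1.86 on day 28.

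To compare the composition of the paralog sets over libraries, the 8 libraries labelled cardiomyocyte were set against the 3 labelled stem cell in an exact two-sided permutation test of each share. The shares of SMARCD3, DPF3, SMARCA2 and SMARCC2 were higher by 57.0, 40.4, 29.0 and 19.1 percentage points. Those of SMARCD1, DPF1, SMARCD2 and DPF2 were lower, with differences of -33.7, -24.9, -23.3 and -15.5 points. For each of these 8 shares the groups did not overlap, and each exact permutation p was 0.0121, the smallest this design can give. How often other gene sets separate these groups was not computed. At day 28 against day 0, 32.1% of all genes were called higher and 28.4% lower, so the separation is not shown to be particular to these paralogs. Shares within a set sum to 100%, the cardiomyocyte libraries come from 3 days, and single days with 3 libraries each cannot go below 0.10, so no test was made between them. The members were chosen with results of these data known, so these p-values are not independent evidence. In bulk RNA, fewer cells of a type and less RNA per cell cannot be told apart.

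Among 21 other subunits, all of which passed the filter, 3 were called higher and 7 lower at day 28 against day 0, beside 32.1% and 28.4% of all genes, with a median log2 change of 0.15. PHF10, a subunit of the polybromo-containing form of the complex (PBAF), rose by 1.99 on the log2 scale (adjusted p = 1.91e-06), with 32.8 ± 3.48 CPM in stem cells and 131 ± 4.41 CPM in the last libraries, and most of its climb came after day 7, where it stood at 34.7 ± 0.80 CPM. The core subunit gene BCL7C (log2 change 1.04) and ARID1B (0.51), a DNA-binding subunit of canonical BAF, rose as well. ACTL6A, the actin-related subunit of proliferating progenitors, held 104 ± 4.63 CPM in stem cells, 24.4 ± 2.20 on day 7 and 23.3 ± 5.60 on day 28, and fell by 2.16 on the log2 scale over the course (adjusted p = 5.9e-06). Its paralog ACTL6B, known from neurons, held 87 counts at day 0 and 2 at day 28 over 3 libraries each, a ratio of 30.9 (95% exact counting interval 8.3 to 259). BCL11B fell by 2.76, ACTB by 2.00, BRD9 by 1.25, BRD7 by 1.24 and SMARCB1 by 0.95 on the log2 scale.

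**Figure D5:**
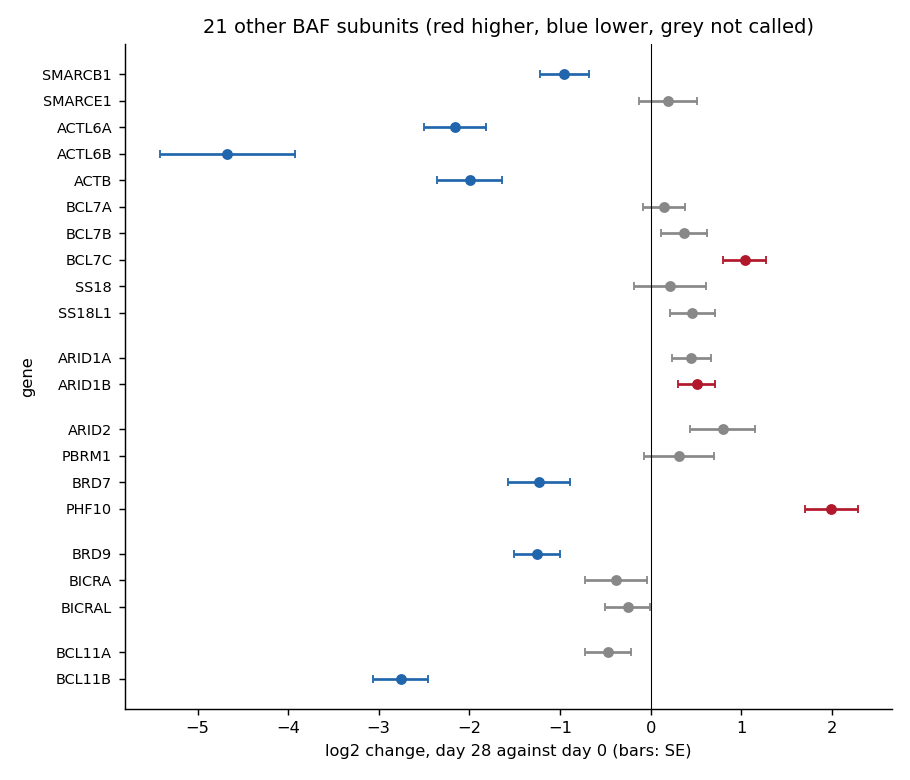
log2 change from day 0 to day 28 (x axis, bars show the SE of edgeR's fit) of 21 BAF subunits outside the paralog sets (y axis, grouped as core, canonical, PBAF, non-canonical and associated). PHF10 lies at 1.99 and ACTL6B at -4.67, and 11 genes in grey were not called.

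Some of these subunits were called in the same early steps as SMARCA2, in which calls were common among all genes. Of the 21, 5 were called higher and 4 lower from day 0 to day 1 (all genes 15.3% and 16.5%). From day 1 to day 3 the counts were 3 and 3 (all genes 18.2% and 19.0%). A link to SMARCA2 was not tested. From day 0 to day 1, where SMARCA2 rose, ARID2 and PBRM1, which target and anchor PBAF, changed by -1.47 (adjusted p = 0.00388) and -1.27 (adjusted p = 0.0171), and the core gene SMARCE1 by -1.16 (adjusted p = 0.00893). BCL7A and BCL7C rose in that step by 1.15 and 1.14. From day 1 to day 3, where SMARCA2 fell, ARID2 changed by 1.89 (adjusted p = 0.000278), BCL11A by -1.05, and ACTL6B held 33 and then 3 counts, a ratio of 11.1 (95% exact counting interval 3.48 to 56.5). BCL11A fell again by 1.31 to day 5 and rose by 1.11 from day 14 to day 28, and BCL11B fell by 1.60 from day 5 to day 7. SMARCB1 and ACTB rose by 1.06 each from day 3 to day 5, and ACTB fell by 1.41 to day 7 and by 1.45 from day 10 to day 14. For both genes the libraries of days 3 and 5 overlapped. The lowest day 5 level of SMARCB1 was 119.7 CPM and its highest day 3 level was 121 CPM. Results of the alternative fits are not given here for the 21 subunits. Of 11 ATPase genes of other remodellers, 3 were called higher at day 28 and 1 lower (all genes 32.1% and 28.4%): CHD3 changed by 2.02, SMARCA1 by 1.55 and CHD9 by 1.41, with INO80 at -0.96.

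Between the first and last days, pluripotency markers fell and cardiomyocyte markers rose. Markers of stages in between took other courses: the mesendoderm sum was highest on day 1 and the cardiac mesoderm sum on day 3. The summed level of 6 pluripotency markers ran from 7441 to 7653 CPM over the day 0 libraries and from 2.31 to 3.03 CPM at day 28, and that of 7 cardiomyocyte markers from 52.0 to 55.3 CPM and from 30627 to 43486 CPM. The 7 cardiac factors that work with BAF included 6 called higher at day 28 against day 0, where 32.1% of all genes were. GATA4 held 0.0881 CPM in stem cells, 91.3 on day 3 and 236 on day 28. NKX2-5 held 0.379 CPM on day 3 and 84.6 on day 5, and HAND2 held 1.29 and 103 CPM on those days. The summed level of 6 proliferation genes ran from 1971 to 2139 CPM at day 0, from 1280 to 1311 at day 1 and from 267 to 533 at day 28. All 6 were called lower at day 28 against day 0, where 28.4% of all genes were. SMARCD1, SMARCD2, SMARCC1, SMARCA4, DPF1 and ACTL6A also fell over the whole course. In the step to day 1 the day means went from 197 to 289 CPM for SMARCD1 and from 160 to 231 CPM for SMARCD2. Neither change was called in edgeR's test (adjusted p = 0.0643 and 0.111). Of the 6 proliferation genes, 3 were called lower in that step and 0 higher (all genes 16.5% and 15.3%). A link between the paralogs and proliferation was not tested. Markers of other cells were present at day 28 too: the sums were 2763 to 3212 CPM for 5 fibroblast markers, 2244 to 2774 for 4 smooth muscle markers, 108 to 244 for 5 endoderm and liver markers, 53.7 to 58.3 for 5 endothelial markers and 16.5 to 18.2 for 6 neural markers. At day 0 they were 20.9 to 31.3, 60.7 to 68.2, 4.76 to 6.56, 379 to 395 and 5.71 to 8.86 CPM, and at day 5 the fibroblast sum was already 1322 to 2259 CPM. The endoderm and liver sum was highest at day 14, the day of the highest DPF3 level, with 463 to 2949 CPM. Of these 25 marker genes none was at 0 in all libraries of day 28. Their part in the changes of the paralogs was not tested.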

How the data were processed

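Total RNA depleted of ribosomal RNA was sequenced in 23 libraries with a stranded kit, per the labels' protocols. The submitters' processing notes name Trim Galore 0.65 for trimming, STAR 2.7.0 for alignment, GRCh38 as the build and HTSeq for gene counting. The authors deposited raw whole-number counts for 57521 genes, of which 44 copies on chromosome Y without counts were left out. Symbols, positions and exon lengths came from GENCODE v44. Library totals ran from 4330334 to 22089595 counts, and within-day correlations of log2 CPM from 0.907 to 0.993.

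The filterByExpr rule (minimum 10 counts) left 22245 genes. All 23 libraries, with TMM factors, entered a single edgeR quasi-likelihood fit (robust, days as groups, version 4.0.16 in R 4.3.3), and the p-values of each comparison were adjusted by Benjamini-Hochberg. CPM values are TMM-scaled and given as mean ± SD. Shares divide counts by the union of annotated exons and were compared by exact permutation (SciPy 1.17.1). In a simulated check on 20101 genes for day 28 against day 0, the test called 30 of 100 genes given a 2-fold change, 96 of 100 given a 4-fold change, and 3 unchanged genes. Most changes of 2-fold were thus missed in that simulation. Far fewer genes were changed there than the 7144 called higher and 6320 called lower in the data. The adjustment of p-values was therefore stricter in the simulation, and its rates do not carry over to this comparison.

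Alternatives were other scalings and filters, DESeq2 1.42.0, mitochondrial genes left out, a replicate block, only the 2 days compared, each library left out, and other lengths for the shares. A fit without GC and length trends and the MANE Select lengths were added after the data were seen. The members and gene lists were chosen with earlier results of these data known. All members were named, other subunits by their calls (the largest rises and falls to day 28, and steps of at least 1 on the log2 scale), and the 3 largest changes of other lists. Promoter windows of 8 members came from RefSeq, and those of SMARCC1 and SMARCC2 were not used here. Marker levels were summed per library without a test. One of the genes with a day profile close to that of SMARCC1 is not reported here.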

Additional observations from a re-analysis of the deposited data

How the results depend on the processing

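Of 24 calls of a member in the 8 comparisons, 17 held under every alternative fit, and no called value changed sign. They were SMARCA2, SMARCD3 and DPF1 from day 0 to day 1, SMARCA2, SMARCD3 and DPF3 in the steps to day 3 and to day 5, and 8 of 9 from day 0 to day 28, where SMARCC2 was lost without a low-count filter. Counts of called members moved as follows. With only the libraries of the 2 days, 6 members instead of 3 were called from day 0 to day 1, 3 instead of 5 from day 1 to day 3, 0 instead of 2 from day 5 to day 7, 4 instead of 2 from day 7 to day 10, 2 instead of 0 from day 10 to day 14 and 4 instead of 0 from day 14 to day 28, and DPF2 was gained from day 0 to day 28. With library totals or with no low-count filter the count was 3 to day 3 and 1 to day 7, and with upper-quartile factors it was 1 to day 7. That 1 was the fall of DPF1 without a filter, but a rise of DPF3 with library totals or upper-quartile factors, where both falls were lost. With GC and length trends removed it was 6 to day 7 and 3 from day 14 to day 28. With each library left out, counts ran from 3 to 6 for day 1 against day 0, 3 to 5 for day 3 against day 1, 0 to 5 for day 7 against day 5 (0 without any of the day 7 libraries, 5 without day 5 replicate 2, 1 without day 5 replicate 1 or 3) and 0 to 2 for day 10 against day 7, and were 3, 0, 0 and 9 for the others. The cause of these changes was not tested.

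Replicate numbers were shared between days and were not used to pair samples in the main fit. Correlations of same-numbered deviations from the day means ran from -0.464 to 0.279. Differently numbered libraries were not compared, so these values cannot decide whether same-numbered libraries belong together. With the replicate block 1 member instead of 2 was called from day 7 to day 10, as SMARCD2 was lost (log2 change -0.97, adjusted p = 0.0526).

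Scaling by library totals moved the median of all genes by up to 0.23 (day 3 against day 1) and -0.207 (day 28 against day 14), and the part of calls that were higher from 48.9% to 64.0% and from 50.6% to 32.0% there, from 51.5% to 67.9% to day 7 and from 54.4% to 32.0% to day 10. Upper-quartile factors gave 40.2% and a shift of -0.118 for day 28 against day 14. The share differences between cardiomyocyte and stem cell libraries kept their direction throughout, but their sizes depended on the length used. From day 0 to day 28 the mean DPF2 share went from 70.5% to 56.2% per kb. It went from 81.9% to 41.9% of CPM without length, and from 73.9% to 65.9% with MANE Select. With day 28 alone the per kb differences were -26.9 points for SMARCD2 and 63.5 for SMARCD3. Leaving out each library moved them to between 27.9 and 31.9 points for SMARCA2 and between 55.9 and 58.3 for SMARCD3.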

Other observations

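The genes whose day means ran most like those of 4 paralogs were found by Pearson correlation of log2 CPM over the 8 days, among 10674 genes with at least 20 CPM on some day. For SMARCD3 they were ARHGAP6 (r = 0.989, Spearman 0.881), SH3RF2 (0.987, 0.881) and LINC00963 (0.987, 0.976). For DPF3 they were ZFPM2 (0.994, 0.976), which encodes a cofactor of GATA4, RCSD1 (0.993, 0.905) and MYL4 (0.992, 0.833), an atrial myosin light chain. SMARCA2, with its dip at day 3, had no match as close: BPNT1 reached 0.957, NBDY 0.927 and MYO18A 0.921. Among the genes most like SMARCC1 were ZNF101 (0.994) and SYT14 (0.992), which declined through the course. These values rest on 8 points that share a time axis, and many genes rise or fall along it.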
